A study of Mus musculus with 12 samples.

Results

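The mRNAs of 10 T-cell mediators were followed in T cells sorted from mouse brain. They are the secreted cytokines Ifng, Tnf, Il2, Csf2, Areg, Tgfb1 and Il10 and the TNF-family ligands Tnfsf8, Tnfsf11 and Cd40lg. The members were the matrix rows that carry these symbols, 10 of 32285 genes, and all of them were among the 19573 genes with at least 1 UMI in the cells used. They were described in γδ T cells, CD4 T cells with and without Foxp3 UMIs and CD8 T cells, by the size of the cell's receptor clone, and across 6 pools of mice.

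The pools came from female mice aged 9 months and were named for their genotype. The 5XFAD-1 pool (4 mice) and the 5XFAD-2 pool (3 mice) carried the 5XFAD amyloid transgenes on a congenic C57BL6 background. The PS-5X pool (4 mice) carried these transgenes together with PS19, a transgene for mutant human tau (MAPT) under the mouse prion protein promoter. The PS19 pool (4 mice) carried the tau transgene alone, on a B6C3F1/J background, and the WT-1 pool (10 mice) and WT-2 pool (8 mice) were wild-type animals of matched strain. Transgenic mice were hemizygous and were compared with female littermates. Each pool mixed the cells of its mice, 33 in all, so every p-value below measures the spread between pools and not between animals, and mice within a pool could not be told apart. A separate sequencing run held 5XFAD-2 and WT-2, and a common run the other 4 pools. CD4+, CD8+ and γδ+ T cells had been sorted from perfused, enzyme-digested brain on a Percoll gradient, and 5′ gene expression and receptor libraries were made on the 10x platform.

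These molecules are among those through which T cells instruct other cells. Many of them are made after receptor stimulation and are short-lived as mRNA. Interferon-γ and TNF act on microglia and other myeloid cells, interleukin 2 on T cells, and GM-CSF (Csf2) on myeloid cells. Amphiregulin, TGF-β1 and interleukin 10 are known for tissue repair and for restraint of inflammation. CD30 ligand (Tnfsf8), RANKL (Tnfsf11) and CD40 ligand sit in the membrane and signal through receptors of the TNF receptor family on the cell that is touched.

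Cells were assigned to classes by their UMIs for gate genes: Cd8a and Cd8b1, Cd4, Trdc and Foxp3. This gave 496 γδ cells (21 to 143 a pool), 119 CD4 cells with a Foxp3 UMI (3 to 37), 2711 Foxp3-negative CD4 cells (136 to 749) and 10954 CD8 cells (477 to 4036), and left 3094 cells in no class. Genes outside the gates set the γδ and Foxp3-positive labels apart, and the CD8 label less clearly. Il17a ran at 609 to 2610 and Cd163l1 at 1200 to 2140 counts per 1000000 UMIs (CPM) in γδ sums. In sums of the other classes they reached at most 407 and 7.05 CPM. Ikzf2 ran at 358 to 949 CPM in Foxp3-positive against 31.4 to 76.5 CPM in Foxp3-negative sums. Ccl5 ran at 5890 to 8060 CPM in CD8 sums, which overlapped with 1640 to 7110 CPM in Foxp3-negative CD4 sums. In γδ sums it was 1380 to 4970 CPM. Of the lists that mark other cells, 12 microglia and macrophage genes summed to 43.5 to 95.9 CPM in γδ, 211 to 567 CPM in Foxp3-positive, 53.3 to 216 CPM in Foxp3-negative CD4 and 51.3 to 138 CPM in CD8 sums. Within that list the microglia genes Csf1r and C1qa stayed at or below 1.69 and 1.08 CPM, so other genes of the list carried most of these sums. The 7 B and plasma cell genes summed to 35.9 to 144 CPM in γδ, 487 to 834 CPM in Foxp3-positive, 132 to 1870 CPM in Foxp3-negative CD4 and 97.2 to 610 CPM in CD8 sums. The 6 NK genes summed to 173 to 782 CPM in γδ, 0 to 14.1 CPM in Foxp3-positive, 5.91 to 52.1 CPM in Foxp3-negative CD4 and 13.3 to 63.1 CPM in CD8 sums. Of these, the receptor gene Ncr1 stood at 0 to 82.7 CPM in γδ sums. The part of these cells in the class differences was not tested. The pools held 5883210 to 38616794 UMIs, and the median cell of a class and pool held 4776.5 to 14591 UMIs. Of 18208 barcode sequences, 166 occurred in more than 1 pool. In WT-1, 172 of 555 cells with a paired receptor carried a receptor also found in another pool. Such cells numbered 565 of 1836 in 5XFAD-1, 174 of 1725 in PS19 and 176 of 4127 in PS-5X. In 5XFAD-2 and WT-2 there were 0. They were left out as an alternative in WT-1 alone, and results that depended on the WT-1 cells are named.

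The promoters of the members whose levels changed most clearly with clone size (Ifng, Tnf and Tnfsf8) or with amyloid in γδ cells (Csf2) are shown first, since they differ in the letters that lie close to the start. Each run is RefSeq sequence of build GRCm38.p6, 250 bases before to 50 bases after the start of the gene, read 5′ to 3′ on the gene's own strand. Ifng lies at chr10:118440796-118441095 on the plus strand, and Tnf at chr17:35201958-35202257, Csf2 at chr11:54249850-54250149 and Tnfsf8 at chr4:63861235-63861534 on the minus strand. Capitals mark GGAAA, the core letters that NFAT factors bind, and the TATA box letters TATAAA, each on either strand.
Ifng: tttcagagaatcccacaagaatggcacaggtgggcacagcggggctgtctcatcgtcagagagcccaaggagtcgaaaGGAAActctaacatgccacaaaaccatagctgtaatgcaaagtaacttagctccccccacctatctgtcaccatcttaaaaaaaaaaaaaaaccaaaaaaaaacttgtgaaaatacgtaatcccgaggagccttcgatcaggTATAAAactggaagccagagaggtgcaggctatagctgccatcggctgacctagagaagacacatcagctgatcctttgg
Tnf: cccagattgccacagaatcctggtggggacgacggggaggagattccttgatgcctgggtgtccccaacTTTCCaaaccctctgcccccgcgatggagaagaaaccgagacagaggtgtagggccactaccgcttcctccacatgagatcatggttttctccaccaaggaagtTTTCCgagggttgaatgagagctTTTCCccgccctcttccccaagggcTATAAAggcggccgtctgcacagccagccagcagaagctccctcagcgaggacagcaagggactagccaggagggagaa
Csf2: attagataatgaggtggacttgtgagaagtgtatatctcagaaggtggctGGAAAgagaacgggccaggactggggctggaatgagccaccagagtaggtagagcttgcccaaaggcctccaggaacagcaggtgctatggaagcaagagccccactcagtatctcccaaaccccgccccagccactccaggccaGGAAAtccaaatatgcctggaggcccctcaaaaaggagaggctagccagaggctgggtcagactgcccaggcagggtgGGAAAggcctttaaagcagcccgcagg
Tnfsf8: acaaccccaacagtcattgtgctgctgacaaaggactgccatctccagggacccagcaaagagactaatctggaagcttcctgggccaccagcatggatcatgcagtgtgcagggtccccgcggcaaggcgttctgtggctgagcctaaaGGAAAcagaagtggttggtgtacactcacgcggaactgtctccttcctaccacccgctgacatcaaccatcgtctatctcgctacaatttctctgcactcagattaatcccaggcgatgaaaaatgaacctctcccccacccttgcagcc
Among the 8 members with a RefSeq promoter here, GGAAA was found 3 times in Tnf and Csf2, 2 times in Il2, once in Ifng, Areg, Tnfsf8 and Tnfsf11, and not in Tgfb1. It is a common word, present in 61.3% of 27025 mouse promoters of this length. TATAAA stood in Ifng, Tnf, Il2, Areg and Tnfsf11, that is in 5 of 8, against 14.2% of all promoters. The letters TGANTCA of an AP-1 site and TGTGGT of a Runx site, found in 7.93% and 16.9% of all promoters, were in none of the 8 windows. Matches of different motifs did not overlap, and a match or its lack in these windows is a description of letters only.

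Levels across the 4 classes were compared first, on sums of UMIs per pool and class, with the pool as a block. Each level below is in CPM of the class sum, given as the lowest, median and highest of the 6 pools. A sum cannot tell more cells with a transcript from more transcript per cell, so shares of cells with a UMI follow. Differences are log2 ratios with their standard error from edgeR's quasi-likelihood test, and adjusted p is Benjamini-Hochberg over all genes tested. The γδ and Foxp3-negative comparisons with CD8 use the same CD8 sums.

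**Figure D1:**
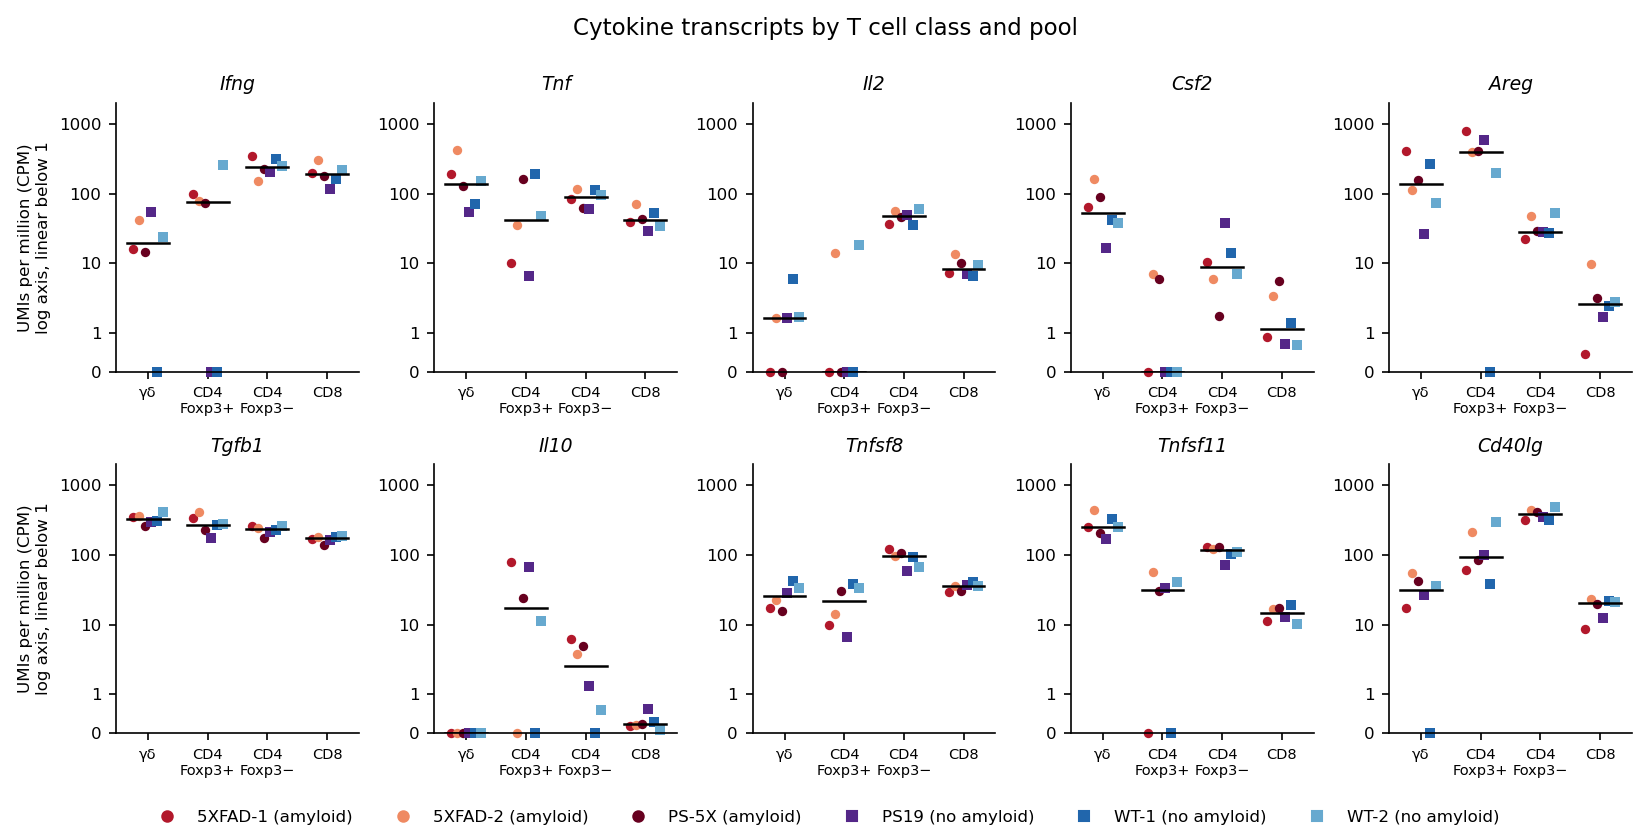
Level of each of the 10 genes by T-cell class. Each point is a pool's UMI sum in CPM on a log axis that is linear below 1 CPM, circles are amyloid pools, squares the other pools and the black bar the median of 6 pools. Cd40lg sits highest in Foxp3-negative CD4 cells, Areg in Foxp3-positive and γδ cells, and Csf2 and Tnfsf11 in γδ cells.

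Foxp3-negative CD4 cells carried more of 9 of the 10 members than CD8 cells did and less of none. Over all genes of that comparison 13.9% were higher and 13.0% were lower, and the median log2 ratio was 2.32 over the members and -0.0 over all 10787 genes. γδ cells exceeded CD8 cells for 6 of 9 tested members and fell below them for 3, where 18.1% of genes were higher and 17.1% lower (medians 0.80 and -0.04). Against Foxp3-negative CD4 cells, γδ cells were higher for 5 of 9 members and lower for 4 (16.2% of all genes in each direction). Il10 was too low in γδ cells to be tested in either comparison. Foxp3-positive CD4 cells were higher than Foxp3-negative ones for 2 of 9 tested members and lower for 5, with 3.46% of genes higher and 4.11% lower and medians of -1.60 over the members and -0.07 over all genes.

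Ifng, the signature cytokine of type 1 responses, was higher in Foxp3-negative CD4 and CD8 cells than in γδ cells, of which 49 of 496 held an Ifng UMI. It stood at 0, 19.8 and 54.6 CPM in γδ cells, 0, 74.8 and 255 CPM in Foxp3-positive cells, 151, 238 and 342 CPM in Foxp3-negative CD4 cells and 118, 189 and 299 CPM in CD8 cells. Every γδ sum lay below every Foxp3-negative CD4 and CD8 sum, while the Foxp3-negative CD4 and CD8 ranges overlapped. Ifng was lower in γδ than in CD8 cells by a log2 ratio of -3.01 ± 0.24 (adjusted p 4.43e-09) and lower than in Foxp3-negative CD4 cells by -3.19 ± 0.29 (adjusted p 3.15e-07). It did not pass between Foxp3-negative CD4 and CD8 cells (0.28 ± 0.18, adjusted p 0.282). It passed without 5XFAD-2 (0.51, adjusted p 0.00131), in the 3 pools without amyloid (0.53, adjusted p 0.0051) and with no gene filter (0.26, adjusted p 0.00778), in a range of 0.00131 to 0.984 over 15 alternatives. In Foxp3-positive cells Ifng was lower than in Foxp3-negative cells (-1.60 ± 0.33, adjusted p 0.00151), in 5 of 6 pools, but 1 cell held 85.5% of the WT-2 UMIs. DESeq2 gave -2.30 with adjusted p 0.0666 there, and the alternatives ran up to that value from 4.96e-11.

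Tnf, the founding member of its family and an activator of NF-κB in target cells, had a different order. Its levels were 54.6, 138 and 426 CPM in γδ cells, 6.63, 41.6 and 190 CPM in Foxp3-positive cells, 59.5, 89.6 and 118 CPM in Foxp3-negative CD4 cells and 28.7, 41.3 and 71.7 CPM in CD8 cells. Tnf was higher in γδ than in CD8 cells by 1.73 ± 0.18 (adjusted p 1.75e-07) and higher in Foxp3-negative CD4 than in CD8 cells by 0.90 ± 0.10 (adjusted p 1.41e-05), in 6 of 6 pools. The γδ excess over Foxp3-negative CD4 cells was 0.79 ± 0.21 (adjusted p 0.00745). In the 3 pools without amyloid it was 0.08 with adjusted p 0.861, the highest over 15 alternatives, the lowest being 3.49e-10. Stricter gates (0.56) and DESeq2 (0.65) also ended that call. Foxp3-positive and Foxp3-negative cells did not differ beyond their spread in Tnf (-0.74 ± 0.36, adjusted p 0.272), and without PS-5X the ratio was -1.53 with adjusted p 0.00338, within a range of 0.00338 to 0.868 over 15 alternatives.

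Il2, the T-cell growth factor, was highest in Foxp3-negative CD4 cells. It reached 35.2, 47.5 and 59.0 CPM there and 6.58, 8.25 and 13.4 CPM in CD8 cells, with no overlap. The difference was 2.33 ± 0.11 (adjusted p 3.03e-09). The 496 γδ cells held 4 Il2 UMIs in all, lower than CD8 cells by a log2 ratio of -3.16 ± 0.53 (adjusted p 8.62e-05) and lower than Foxp3-negative CD4 cells by -5.40 ± 0.35 (adjusted p 4.22e-09). The comparison with CD8 missed the threshold in the 3 pools without amyloid (-1.98, adjusted p 0.0697, the highest of 15 alternatives that began at 4.27e-07). Foxp3-positive cells held 7 Il2 UMIs in 3 cells and were lower than Foxp3-negative cells in 6 of 6 pools (-2.88 ± 0.47, adjusted p 9.93e-05).

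Csf2 had its highest median in γδ cells, at 16.5, 52.8 and 161 CPM. It stood at 1.72, 8.75 and 37.8 CPM in Foxp3-negative CD4 cells and 0.685, 1.13 and 5.5 CPM in CD8 cells. Every γδ sum lay above every CD8 sum, by 4.87 ± 0.28 (adjusted p 6.2e-11). Foxp3-positive cells held only 2 Csf2 UMIs and were not tested. The γδ excess over Foxp3-negative CD4 cells was 2.50 ± 0.54 (adjusted p 0.00168) with all pools and 0.56 (adjusted p 0.527) in the 3 pools without amyloid, the adjusted p running from 1.14e-43 to 0.527 over 15 alternatives. In Foxp3-negative CD4 cells a single cell held 18.2% to 85.7% of a pool's Csf2 UMIs. The difference from CD8 cells was 2.30 ± 0.68 (adjusted p 0.0223), and it lost the call without 5XFAD-1, without PS19 or without WT-1 (2.08, 1.51 and 2.19) and in the 3 amyloid pools alone (0.72), where adjusted p was 0.557, against a lowest value of 3.54e-10.

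Areg, which encodes the epidermal growth factor receptor ligand amphiregulin, was high in Foxp3-positive and γδ cells and low in CD8 cells. It stood at 26.5, 135 and 410 CPM in γδ cells, 0, 398 and 785 CPM in Foxp3-positive cells, 22.4, 28.4 and 52.9 CPM in Foxp3-negative CD4 cells and 0.446, 2.60 and 9.88 CPM in CD8 cells. Foxp3-positive exceeded Foxp3-negative cells by 3.30 ± 0.33 (adjusted p 6.28e-08) in 5 of 6 pools, the other being WT-1 with 3 Foxp3-positive cells and no Areg UMI. γδ cells exceeded CD8 cells by 5.33 ± 0.43 (adjusted p 7.29e-09) and Foxp3-negative CD4 cells by 1.98 ± 0.39 (adjusted p 0.000757). The second of these was 0.99 with adjusted p 0.0823 in the 3 pools without amyloid, the highest over 15 alternatives, the lowest being 5.11e-52. Foxp3-negative CD4 cells in turn exceeded CD8 cells by 3.42 ± 0.26 (adjusted p 4.99e-07). Areg is also a product of type 2 innate lymphoid cells. The summed level of 5 genes that mark them ran at 106 to 756 CPM in Foxp3-positive and 120 to 146 CPM in Foxp3-negative sums. Of these genes, Il13 was at 0 in 6 of 6 and Il5 at 0 in 5 of 6 pools. Il1rl1 went the other way, at 7.05 to 114 CPM in Foxp3-positive against 1.01 to 6.65 CPM in Foxp3-negative sums. The part of such cells in the Areg level was not tested. In 5XFAD-1 all Areg UMIs of the Foxp3-positive sum lay in 1 of 7 cells.

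Tgfb1, which is made as a latent protein and must be activated outside the cell, was present in every class at levels within a narrow range. It stood at 260, 329 and 408 CPM in γδ cells, 172, 269 and 409 CPM in Foxp3-positive cells, 175, 235 and 260 CPM in Foxp3-negative CD4 cells and 139, 172 and 185 CPM in CD8 cells. γδ cells exceeded CD8 cells by 0.80 ± 0.07 (adjusted p 4.27e-08) and Foxp3-negative CD4 cells by 0.45 ± 0.08 (adjusted p 0.000199). Foxp3-negative CD4 cells exceeded CD8 cells by 0.35 ± 0.05 (adjusted p 7.87e-05). Foxp3-positive and Foxp3-negative cells did not differ beyond their spread (0.05, adjusted p 0.936). Of 7 tested genes for shedding or activation of the ligands, 3 were higher in Foxp3-positive cells and none lower, where 3.46% of all genes were higher. They were Lrrc32 (6.17 ± 0.43, adjusted p 5.08e-11), which anchors latent TGF-β at the surface, and the integrin chains Itgb8 (3.03 ± 0.86, adjusted p 0.0236) and Itgav (1.5 ± 0.26, adjusted p 0.0002). Lrrc32 was also among the genes listed beforehand as marks of Foxp3-positive cells.

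Il10, which restrains myeloid cells, rested on few UMIs in every class. Foxp3-positive cells held 25 UMIs in 8 of 119 cells, Foxp3-negative CD4 cells 51 UMIs in 25 of 2711 cells and CD8 cells 19 UMIs in 15 of 10954 cells. No UMI was found in 496 γδ cells, which allows a level of up to 0.842 CPM at 3 counts over that group, counting error only. Il10 was higher in Foxp3-negative CD4 than in CD8 cells by 3.42 ± 0.53 (adjusted p 0.000273) in 5 of 6 pools. It was higher in Foxp3-positive than in Foxp3-negative cells by 3.17 ± 0.72 (adjusted p 0.00386) in 4 of 6 pools. That call was lost without PS19 (2.58, adjusted p 0.0512) and in the 3 amyloid pools (2.37, adjusted p 0.199), and adjusted p ran from 7.12e-06 to 0.199 over 14 alternatives.

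Cd40lg, through which helper T cells license B cells and antigen-presenting cells, was highest in Foxp3-negative CD4 cells. It stood at 0, 31.0 and 54.8 CPM in γδ cells, 37.9, 91.8 and 295 CPM in Foxp3-positive cells, 318, 380 and 489 CPM in Foxp3-negative CD4 cells and 8.55, 20.5 and 23.4 CPM in CD8 cells. Every Foxp3-negative CD4 sum lay above every sum of the other classes. The ratio to CD8 cells was 4.43 ± 0.12 (adjusted p 3.51e-11). Foxp3-positive cells were lower than Foxp3-negative ones by -1.75 ± 0.22 (adjusted p 4.18e-06) in 6 of 6 pools, and γδ cells lower by -3.68 ± 0.18 (adjusted p 1.7e-10). The γδ excess over CD8 cells was 0.76 ± 0.21 (adjusted p 0.00788) and did not hold without 5XFAD-2 (0.65), with stricter gates (0.76) or in the pools without amyloid (0.42), with adjusted p of 2.26e-08 to 0.503 over 15 alternatives.

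Tnfsf11 (RANKL), the osteoclast differentiation factor that T cells also display, was highest in γδ cells. It stood at 167, 252 and 445 CPM in γδ cells, 0, 31.6 and 56.4 CPM in Foxp3-positive cells, 71.0, 117 and 130 CPM in Foxp3-negative CD4 cells and 10.1, 14.7 and 18.9 CPM in CD8 cells. No γδ sum overlapped with those of another class. The log2 ratios were 4.04 ± 0.15 for γδ over CD8 cells (adjusted p 6.12e-14), 1.15 ± 0.14 for γδ over Foxp3-negative CD4 cells (adjusted p 5.29e-06), 2.91 ± 0.12 for Foxp3-negative CD4 over CD8 cells (adjusted p 1.75e-09) and -1.95 ± 0.31 for Foxp3-positive over Foxp3-negative cells (adjusted p 7.8e-05). Tnfrsf11a, the gene of its receptor RANK, was also higher in γδ cells, by 5.99 ± 0.66 over CD8 cells (adjusted p 7.55e-07).

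Tnfsf8 (CD30 ligand), which signals to CD30 on activated lymphocytes, was highest in Foxp3-negative CD4 cells. It stood at 15.8, 25.3 and 41.9 CPM in γδ cells, 6.63, 22.1 and 37.9 CPM in Foxp3-positive cells, 58.2, 96.1 and 122 CPM in Foxp3-negative CD4 cells and 29.6, 36.0 and 40.3 CPM in CD8 cells. Foxp3-negative CD4 sums lay above all others. They exceeded CD8 cells by 1.30 ± 0.15 (adjusted p 1.93e-05), and Foxp3-positive cells were lower than they were by -2.17 ± 0.32 (adjusted p 2.53e-05). γδ cells were lower than Foxp3-negative CD4 cells by -1.99 ± 0.22 (adjusted p 2.04e-06). They were lower than CD8 cells by -0.68 ± 0.16 (adjusted p 0.00218), a difference of -0.36 with adjusted p 0.36 in the pools without amyloid, the highest over 15 alternatives, the lowest being 0.00055.

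Shares of cells with a UMI were compared after cells had been thinned to 2000 UMIs, because the classes differ in depth (medians of 6057 to 8176 UMIs in γδ, 4981 to 6793.5 in Foxp3-negative CD4 and 5716 to 7546 in CD8 cells, by pool). Cells too shallow for this were left out, 3 γδ, 89 Foxp3-negative CD4 and 327 CD8 cells. Over pools, a Tnfsf11 UMI was seen in a median of 26.0% of γδ, 11.3% of Foxp3-negative CD4 and 2.04% of CD8 cells, and a Csf2 UMI in 7.15%, 1.00% and 0.200% of the same classes. A Cd40lg UMI was seen in 43.7% of Foxp3-negative CD4 cells (37.9% to 49.2%), against 2.12% of CD8 cells (1.24% to 3.26%), the class among these least known for CD40 ligand. For Ifng the shares were 3.67% of γδ, 18.4% of Foxp3-negative CD4 and 20.8% of CD8 cells, and none of these classes is known to lack it. A Tgfb1 UMI was seen in 44.1% of γδ, 33.4% of Foxp3-negative CD4 and 27.4% of CD8 cells. Cells that passed no gate held every member too, with Ifng at 98.5 to 207 and Cd40lg at 160 to 207 CPM by pool.

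Genes with roles near the members differed between classes in part, several lists in both directions. Over all genes, 13.9% were higher and 13.0% lower in Foxp3-negative CD4 than in CD8 cells. In γδ over CD8 cells these shares were 18.1% and 17.1%. Of 22 other secreted cytokines, 11 were tested between Foxp3-negative CD4 and CD8 cells and 9 were higher and 1 lower, led by Il17f (7.54 ± 0.57, adjusted p 8.24e-07), Il17a (6.58 ± 0.53, adjusted p 7.69e-07) and Il21 (6.25 ± 0.36, adjusted p 2.56e-08). Pools differed widely in Il17a, which ran from 0 to 407 CPM in Foxp3-negative CD4 sums with a median of 19.5 CPM. In γδ over CD8 cells 4 of 8 were higher and 3 lower, led by Il17a at 11.15 ± 0.27 (adjusted p 1.1e-16). Of 13 other TNF-family ligands 7 were tested there, 3 higher and 2 lower, among them the lymphocyte ligands Tnfsf14 (2.10 ± 0.12, adjusted p 4.9e-11) and Lta (1.97 ± 0.19, adjusted p 5.9e-08). Receptors for the members were higher in γδ than in CD8 cells for 7 of 15 and lower for 4, with the amphiregulin receptor gene Egfr at 6.51 ± 0.55 (adjusted p 1.09e-08) and the interleukin 2 receptor chain Il2ra at 5.26 ± 0.12 (adjusted p 3.58e-17). Of 7 factors that shorten the life of cytokine mRNA, 3 were higher and 2 lower in γδ cells, with Zfp36, the AU-rich element binding protein tristetraprolin, higher by 1.89 ± 0.15 (adjusted p 7.86e-09). These lists, like the members, were chosen with earlier results of these data known.

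The second question was how the members go with clonal expansion. A cell was called expanded when its receptor clone had at least 2 kept cells in its pool, and a singleton when it had 1. Cells with no receptor clone assigned were in neither group. Of 10954 CD8 cells 4083 were expanded and 6083 singletons, and of 2711 Foxp3-negative CD4 cells 474 and 2088. In CD8 cells 5 of 9 tested members were higher in expanded than in singleton cells and 1 was lower, where 15.8% of 10937 genes were higher and 13.7% were lower. The median log2 ratio was 0.81 over the members and 0.01 over all genes.

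Ifng stood at 213, 339 and 483 CPM (lowest, median and highest of 6 pools) in expanded CD8 cells and at 92.3, 112 and 200 CPM in singletons. Every expanded sum lay above every singleton sum, and the ratio was 1.31 ± 0.10 (adjusted p 2.54e-07). Tnf stood at 51.3, 59.7 and 114 CPM in expanded and 21.8, 29.0 and 50.3 CPM in singleton cells, again with no overlap (1.01 ± 0.08, adjusted p 3.3e-07). Tnfsf11 was at 13.9, 23.1 and 28.2 CPM in expanded and 6.61, 9.62 and 12.0 CPM in singleton cells, with no overlap (1.00 ± 0.15, adjusted p 0.000202). Tnfsf8 ran the other way, at 15.2, 21.1 and 24.4 CPM in expanded cells and 36.8, 41.8 and 44.4 CPM in singletons, with no overlap (-1.10 ± 0.10, adjusted p 1.67e-06). The calls of Areg and Tgfb1 were lost in several alternatives. Areg was higher by 1.48 ± 0.37 (adjusted p 0.00727) and lost the call without 5XFAD-2 (1.23), with doublets kept (0.97) and in the amyloid pools alone (1.05). Tgfb1 was higher by 0.18 ± 0.05 (adjusted p 0.0244) and lost the call in 8 of 16 alternatives, without 5XFAD-1, PS-5X or WT-2 among them, its adjusted p running from 0.0109 to 1.0.

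Csf2 (0.81 ± 0.33, adjusted p 0.0852), Cd40lg (0.78 ± 0.33, adjusted p 0.0969) and Il2 (-0.03, adjusted p 0.953) did not pass, and Il10 was too low to be tested. Csf2 passed without WT-1 (0.91, adjusted p 0.0407, in a range of 0.0199 to 0.627 over 14 alternatives). Without the WT-1 cells that share receptors, 15 expanded cells were left in that pool and it dropped out of the comparison, so that alternative is the same fit. Cd40lg passed without 5XFAD-2 (1.19, adjusted p 0.00485, in a range of 3.11e-10 to 0.80 over 16).

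**Figure D2:**
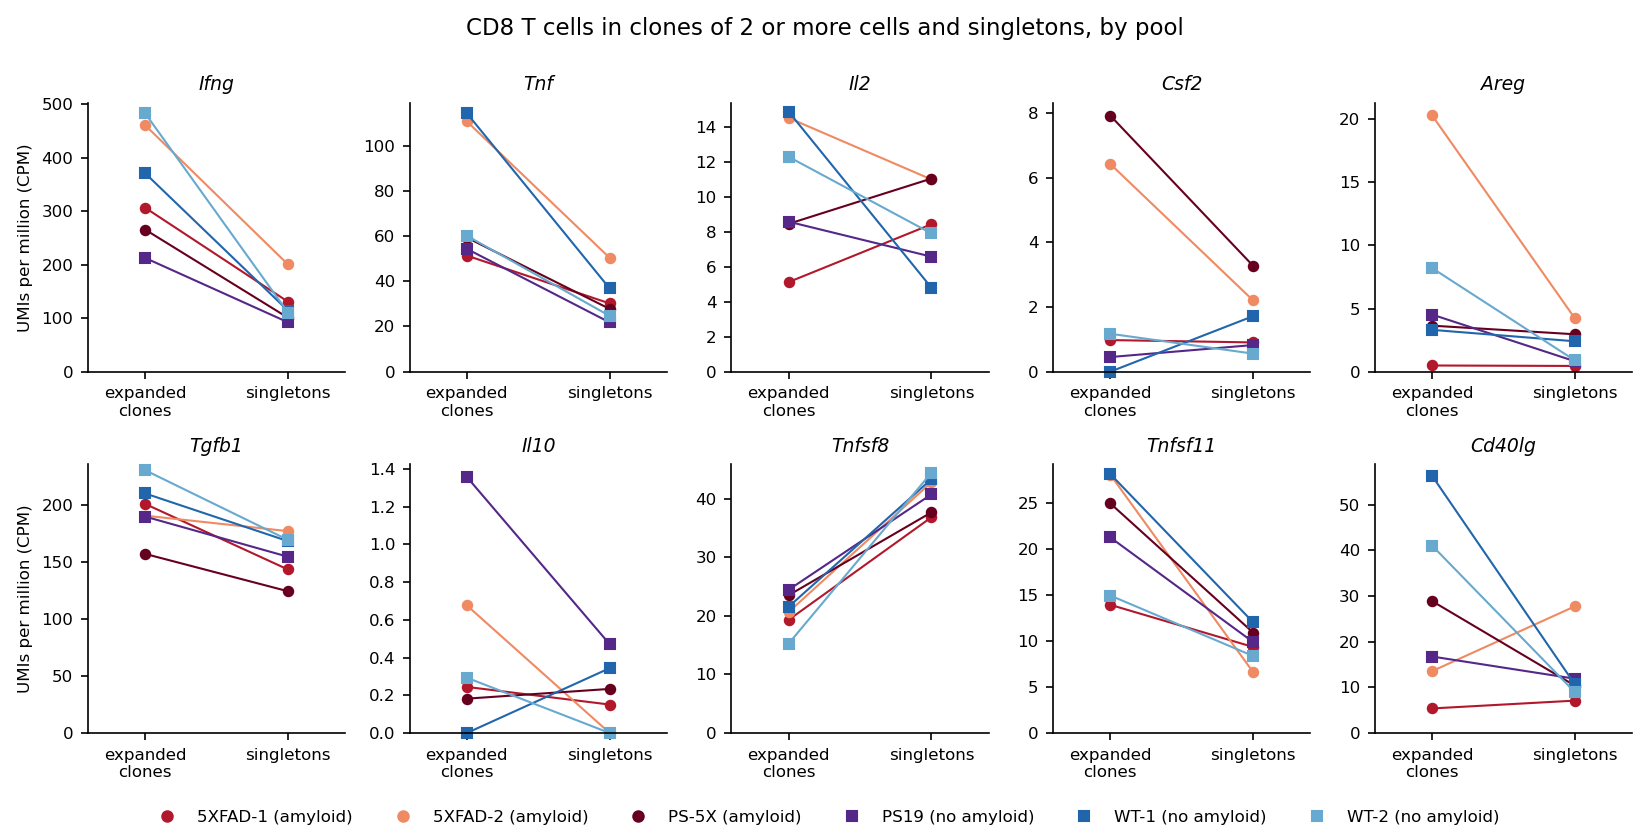
Level of the 10 genes in expanded and singleton CD8 cells, in CPM on a linear axis that starts at 0. Each line joins the expanded sum and the singleton sum of 1 pool. For Ifng, Tnf and Tnfsf11 all 6 expanded values lie above all 6 singleton values, and for Tnfsf8 all 6 lie below.

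Expanded cells also held fewer cells with a UMI of a naive or central-memory gene (Ccr7, Lef1, Dapl1 or Igfbp4, a choice of genes made after seeing the data), 28.6% to 37.7% of expanded cells against 63.5% to 82.1% of singletons. When all cells with such a UMI were left out of both sums, 2 of the members, Ifng and Tnf, were still called at smaller ratios, 0.42 (adjusted p 0.0149) for Ifng and 0.60 (adjusted p 0.00179) for Tnf, and the other 4 were not. Tnfsf8 then differed by -0.16 (adjusted p 0.841) and Tnfsf11 by 0.31 (adjusted p 0.536), while Areg stood at -0.18 (adjusted p 0.957) and Tgfb1 at 0.0 (adjusted p 1.0). Over 16 alternatives adjusted p ran from 8.14e-37 to 0.841 for Tnfsf8, from 2.4e-14 to 0.536 for Tnfsf11 and from 2.67e-07 to 0.957 for Areg.

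The level of Ifng followed clone size beyond the step from 1 to 2 cells. With all pools together, Ifng was 118 CPM in singletons, 228 in clones of 2 to 4 cells, 351 in clones of 5 to 19 and 397 in clones of 20 or more. Tnf was 29.7, 48.1, 86.1 and 66.0 CPM over the same sizes, and Tnfsf8 was 40.4, 21.0, 18.1 and 24 CPM. The share of cells with a naive-gene UMI was 74.2%, 46.1%, 32.6% and 21.0%, so it went down as Ifng went up. Clones of 5 or more cells were tested against clones of 2 to 4 cells over the 6 pools. Of 9 members 1 was called, Ifng, which was higher by 0.79 ± 0.14 (adjusted p 0.00605), where 1.18% of genes were higher and 0.907% were lower. Its levels were 296, 422 and 581 CPM (lowest, median and highest) in the larger and 147, 206 and 505 CPM in the smaller clones, higher in 5 of 6 pools. WT-2 was the exception, at 470 CPM in larger and 505 CPM in smaller clones, and in the 3 pools without amyloid the ratio was 0.48 with adjusted p 0.906, in a range of 1.68e-26 to 0.906 over 16 alternatives. Tnf differed by 0.59 ± 0.17 (adjusted p 0.0873), and it passed without WT-1 (0.73, adjusted p 0.00526, in a range of 1.1e-06 to 1.0). The other members lay between Il2 (-0.73 ± 0.27, adjusted p 0.238) and Csf2 (1.43 ± 0.56, adjusted p 0.273), with Tnfsf8 at -0.04, Tgfb1 at -0.03, Tnfsf11 at 0.03, and Areg and Cd40lg both at 0.21, and Il10 was not tested.

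**Figure D3:**
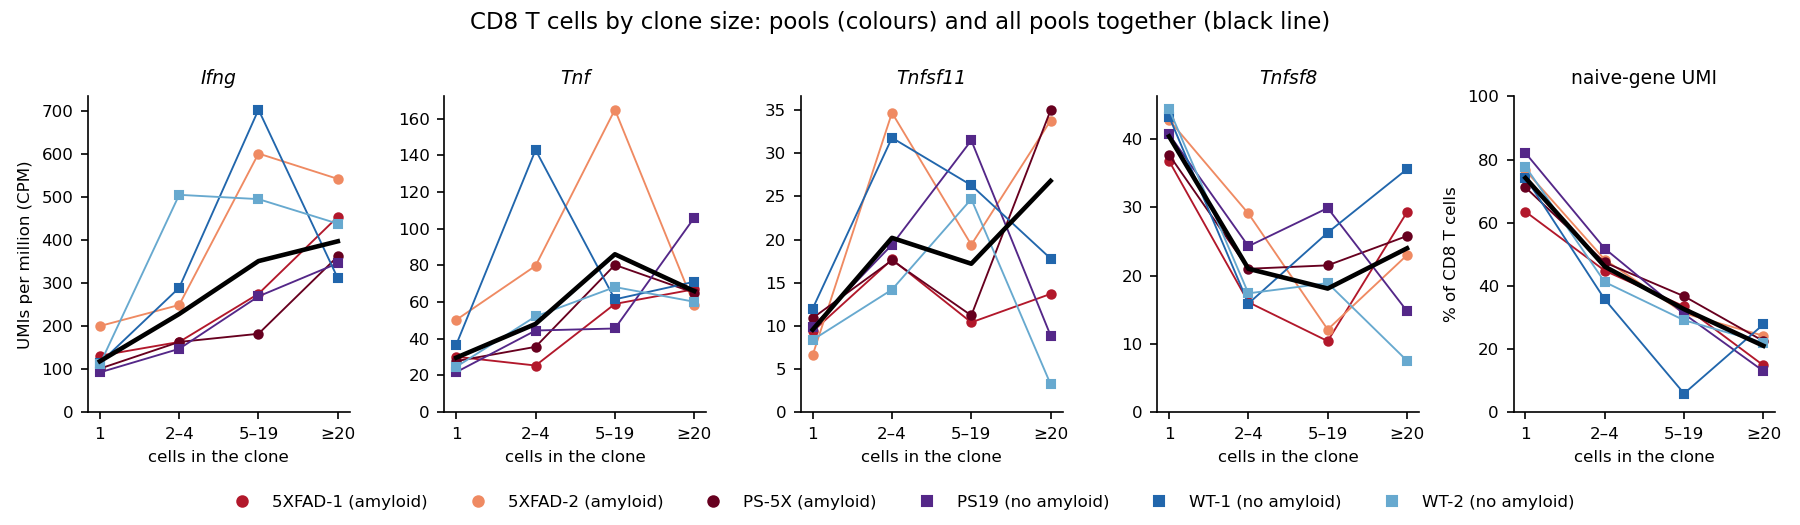
CD8 level of Ifng, Tnf, Tnfsf11 and Tnfsf8 in CPM and share of cells with a naive-gene UMI in percent, by clone size from 1 cell to 20 or more. Thin lines are pools and the black line is all pools together. Ifng climbs over all 4 sizes while Tnfsf8 is highest in singletons.

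Single large clones differed widely. The 38 clones with CD8 cells and at least 20 kept cells of any class held 2 to 362 CD8 cells each. In those CD8 cells Ifng had a median of 350 CPM and a highest value of 816 CPM, and the 1 clone at 0 was the WT-2 clone with 2 CD8 cells. Tnf was found in all 38, from 10.9 to 371 CPM with a median of 55.8 CPM, and so was Tgfb1, from 87.6 to 334 CPM. Csf2 was at 0 in 28 of the 38 clones, and the clone with the most held 72.1% of the UMIs of all of them. That clone, 64 cells of PS-5X, had 130 CPM of Csf2, 505 CPM of Cd40lg and 407 CPM of Ifng. Cd40lg was at 0 in 22 clones, Areg in 32 and Il10 in 33. Clones of 1 pool share its mice and library and are not replicates.

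Foxp3-negative CD4 cells showed the same pair of cytokines with expansion. The comparison used 5 pools, because WT-1 had 15 expanded cells. Of 10 members 2 were higher and 1 lower, where 4.38% of genes were higher and 4.69% lower, and the median log2 ratio was -0.21 over the members and 0.0 over all genes. Ifng was 534, 263, 602, 387 and 298 CPM in expanded cells of 5XFAD-1, 5XFAD-2, PS-5X, PS19 and WT-2, against 231, 133, 136, 174 and 244 CPM in their singletons. Each pool was higher in its expanded cells, although the ranges overlapped (1.06 ± 0.19, adjusted p 0.00441). That call was lost with stricter gates (1.16, adjusted p 0.0516) and in the pools without amyloid (0.54, adjusted p 0.212), with a lowest adjusted p of 3.58e-15 over 14 alternatives. Tnf was 127, 216, 116, 99.9 and 178 CPM in expanded cells and 56.8, 98.6, 48.0, 54.2 and 80.5 CPM in singletons, with no overlap (1.00 ± 0.11, adjusted p 0.000158). Tnfsf8 was lower by -0.91 ± 0.26 (adjusted p 0.045) in 4 of 5 pools, and that call was lost in 8 of 14 alternatives, without 5XFAD-1 (-0.47), 5XFAD-2, PS-5X or WT-2 among them, with adjusted p of 1.03e-07 to 0.784. The summed level of the 4 naive genes was 34.9 to 241 CPM in expanded and 942 to 1790 CPM in singleton Foxp3-negative CD4 cells of the 6 pools, and that of 4 genes that mark CD8 cells (Ccl5, Nkg7, Cd7 and Eomes) was 3560 to 17100 CPM in expanded and 1860 to 3460 CPM in singleton cells, their part in these differences being untested. The ratios of Tgfb1 (0.10), Il10 (-0.03), Areg (-0.25), Il2 (-0.37) and Csf2 (-0.41) did not pass, with adjusted p of 0.536 (Il2) or higher.

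Classes taken from clusters instead of gates turned the direction of Tnfsf11 (-0.26 with gates, 0.55 with adjusted p 0.0067 with clusters) and Cd40lg (-0.17 with gates, 0.41 with adjusted p 0.0137 with clusters) in expanded over singleton Foxp3-negative CD4 cells. Over 14 alternatives adjusted p ran from 0.0067 to 0.898 for Tnfsf11 and from 0.0137 to 0.914 for Cd40lg. The expansion effect itself was tested for a difference between Foxp3-negative CD4 and CD8 cells, and edgeR called 0 of 10 members, where 0.105% of genes were called. At an unadjusted p below 0.05 there were 2 members, and DESeq2 called 0. The difference was 0.03 for Tnf, -0.15 for Ifng and -1.18 ± 0.32 for Tnfsf11 (adjusted p 0.147). The others lay between Csf2 (-1.72) and Tnfsf8 (0.25), with Areg at -1.71, Cd40lg at -0.77, Il10 at -0.55, Il2 at -0.22 and Tgfb1 at -0.07.

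Related genes differed in part with expansion as well, beside 15.8% of all genes higher and 13.7% lower in CD8 cells and 4.38% higher and 4.69% lower in Foxp3-negative CD4 cells. Of 8 tested TNF-family ligands outside the members, 4 were higher in expanded CD8 cells and none lower, with a median of 0.89, among them the death receptor ligand Fasl (0.96 ± 0.09, adjusted p 1.45e-06), the co-stimulatory ligand Tnfsf9 (1.04 ± 0.23, adjusted p 0.00384) and Tnfsf13b, the B-cell survival factor BAFF (1.77 ± 0.24, adjusted p 6.38e-05). In Foxp3-negative CD4 cells 3 of 6 were higher and none lower: Lta (1.07 ± 0.30, adjusted p 0.0422), Tnfsf10 (0.94 ± 0.21, adjusted p 0.0117) and Fasl (0.88 ± 0.14, adjusted p 0.00186). Of 20 tested transcription factors known for cytokine genes, 11 were higher and 2 lower in expanded CD8 cells, led by Maf (1.36 ± 0.19), Bhlhe40 (1.29 ± 0.07) and Prdm1 (1.25 ± 0.09), with adjusted p of 8.91e-05, 1.3e-08 and 1.87e-07. Ifngr2, the signalling chain of the interferon-γ receptor, was lower in expanded cells of both classes, by -3.18 ± 0.21 in CD8 cells (adjusted p 6.75e-08) and -3.65 ± 0.41 in Foxp3-negative CD4 cells (adjusted p 0.000153). Ifngr2 was also a leading gene of a CD4 cluster that shared the naive gene Igfbp4 and of a CD8 cluster led by the naive gene Dapl1. Only the members were followed without naive-gene cells, and the part of naive cells in the differences of these related genes was not tested. Of 12 genes that respond to the members directly, 3 were higher and 3 lower in expanded CD8 cells, so that the list had no common direction, and Cish was higher by 1.21 ± 0.06 (adjusted p 4.5e-09).

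Within a class the members separated by cell state. Clusters were computed without the 10 genes, and their levels are descriptions with no test. Of 3 Foxp3-negative CD4 clusters with at least 100 cells, the one led by Tnfrsf4 and Tiam1 (1263 cells) held Ifng at 321, Il2 at 101, Cd40lg at 574, Tnfsf11 at 215 and Tnfsf8 at 160 CPM. The one led by St8sia6 and Igfbp4 (798 cells) held Ifng at 0.653, Il2 at 0.871 and Tnfsf11 at 6.31 CPM, and still 260 CPM of Cd40lg. A small cluster led by Il4 and Mmp9 (115 cells) had the highest Csf2 of the 3, at 48.3 CPM, with Il2 at 9.65 CPM. So Cd40lg was present in all 3 states, and Il2, Tnfsf11 and Areg were concentrated in 1 of them.

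Among 11 CD8 clusters found in at least 5 pools, Ifng ran from 1.36 to 501 CPM. The highest was led by the chemokine genes Ccl3 and Ccl4 and by Lag3 (1456 cells, 80.9% of them expanded). The cluster led by S1pr5 and Cx3cr1 (676 cells) held 410 CPM of Ifng and 49.5 CPM of Cd40lg, but 3.07 CPM of Tnfsf8. Il2 was concentrated in the cluster led by Abcb1b and Xcl1 (2184 cells), at 28.3 CPM, where every other cluster was at 9.25 CPM or lower. Tnfsf8 was highest in the clusters led by Gzmm and Fcgrt (76.1 and 65.5 CPM, 524 and 741 cells) and by Dapl1 (57.2 and 45.7 CPM, 683 and 1214 cells), of which 0.693% to 4.03% of cells were expanded.

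**Figure D4:**
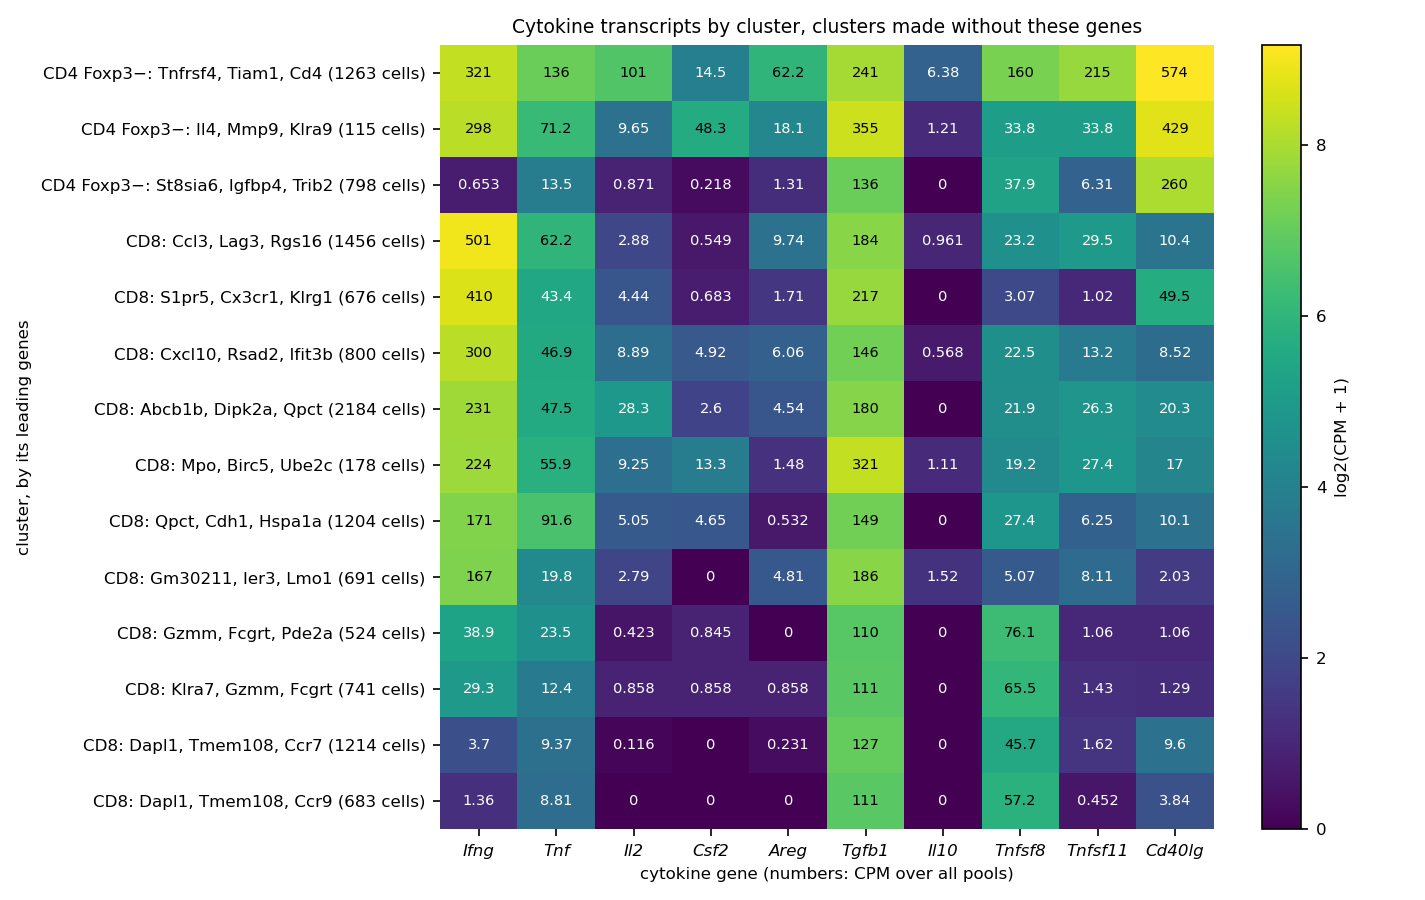
Level of the 10 genes in 3 Foxp3-negative CD4 and 11 CD8 clusters of at least 100 cells, found in at least 5 pools. Colour is log2(CPM + 1), the printed number is CPM, and rows carry each cluster's leading genes. Ifng is high in the Ccl3 and Lag3 cluster and near 0 in the Dapl1 clusters, where Tnfsf8 is high.

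The third question was whether the members differ with genotype. Amyloid was tested over 3 pools with it (5XFAD-1, 5XFAD-2 and PS-5X) and 3 without it (PS19, WT-1 and WT-2), with tau as a further term and 3 residual degrees of freedom, and levels are given in these orders. Sequencing run and genotype are balanced only within 5XFAD and WT. A block on the run is therefore given where it changed a call. The PS19 and 5XFAD pools were also on different strain backgrounds, and background was not a term. Where the 3 and 3 pools do not overlap, this is a description only, since a two-sided exact permutation p over them cannot go below 0.1. The share of all genes without overlap is not given, so a lack of overlap below is not read as a difference. An edgeR call was made for 1 member, in γδ cells.

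In γδ cells Csf2 was higher with amyloid. Its level was 63.7, 161 and 87.8 CPM in the amyloid pools (mean 104 ± 50.8, SD, n = 3), against 16.5, 41.9 and 37.2 CPM in the pools without (31.9 ± 13.5). All amyloid pools lay above all others. The ratio was 1.80 ± 0.34 (adjusted p 0.0131), which made Csf2 1 called member of 8 tested, where 0.322% of 7449 genes were called. With the sequencing run as a block 3 members and 45 genes were called, against 24 genes without it. These sums are small: they rest on 44, 100 and 78 Csf2 UMIs in the amyloid pools and 10, 7 and 22 UMIs in the others, and a single cell held 57.7% of those of PS-5X. The call was lost without 5XFAD-2 (1.38, adjusted p 0.0575), without WT-2 (1.98, adjusted p 0.201), with stricter gates (2.47, adjusted p 0.0604), with cluster classes (0.77, adjusted p 0.47) and with 5XFAD against WT alone (1.57, adjusted p 0.178), its adjusted p running from 6.91e-09 to 0.47 over 15 alternatives. Within runs the log2 ratio was 1.35 in the common run and 2.09 in the separate run.

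Tnf in γδ cells was 188, 426 and 126 CPM with amyloid and 54.6, 71.8 and 151 CPM without. The groups overlapped at PS-5X and WT-2, and the ratio was 1.27 ± 0.28 (adjusted p 0.0549). With the run as a block it was 1.39 with adjusted p 9.38e-05, in a range of 1.37e-07 to 0.724 over 15 alternatives. Within each pair of pools it was 1.38 (5XFAD-1 over WT-1), 1.49 (5XFAD-2 over WT-2) and 1.19 (PS-5X over PS19). Areg was 410, 113 and 156 CPM with amyloid and 26.5, 269 and 72.7 CPM without, which overlapped (1.37 ± 0.42, adjusted p 0.318; with the block 1.15, adjusted p 0.0226, in a range of 4.39e-08 to 1.0). Tnfsf8 was 17.4, 22.6 and 15.8 CPM with amyloid and 28.1, 41.9 and 33.8 CPM without, with no overlap (-0.85 ± 0.34, adjusted p 0.615). Cd40lg (0.52), Tnfsf11 (0.31), Tgfb1 (-0.11) and Ifng (-0.49) had adjusted p of 0.891 (Tnfsf11) or higher, and Il2 and Il10 were too low to be tested.

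Other genes changed in the γδ cells beside Csf2. Il17a was 2400, 2610 and 1900 CPM with amyloid and 718, 1750 and 609 CPM without (1.24 ± 0.23, adjusted p 0.0131), and Il17f was higher by 2.75 ± 0.43 (adjusted p 0.00336). The immediate early genes Fos (1.5 ± 0.15, adjusted p 2.96e-05) and Jun (1.12 ± 0.15, adjusted p 0.00048) were higher, as were Zfp36 (0.99 ± 0.17, adjusted p 0.00583) and the NF-κB inhibitor gene Nfkbia (1.06 ± 0.19, adjusted p 0.00731). The summed level of 8 genes known to be induced when tissue is dissociated was 7500 to 12300 CPM with amyloid and 4290 to 9570 CPM without. The summed level of 9 genes that mark γδ cells, Il17a and Cd163l1 among them, was 7500 to 8890 CPM with amyloid and 4920 to 7120 CPM without, with no overlap. Cd163l1 alone was 2080, 1830 and 2140 CPM with amyloid and 1200, 1680 and 1470 CPM without. The summed level of the 4 naive genes was 108 to 159 CPM with amyloid and 152 to 371 CPM without, and the NK list of 6 at 253 to 449 CPM and 173 to 782 CPM. The part of these in the γδ differences was not tested.

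**Figure D5:**
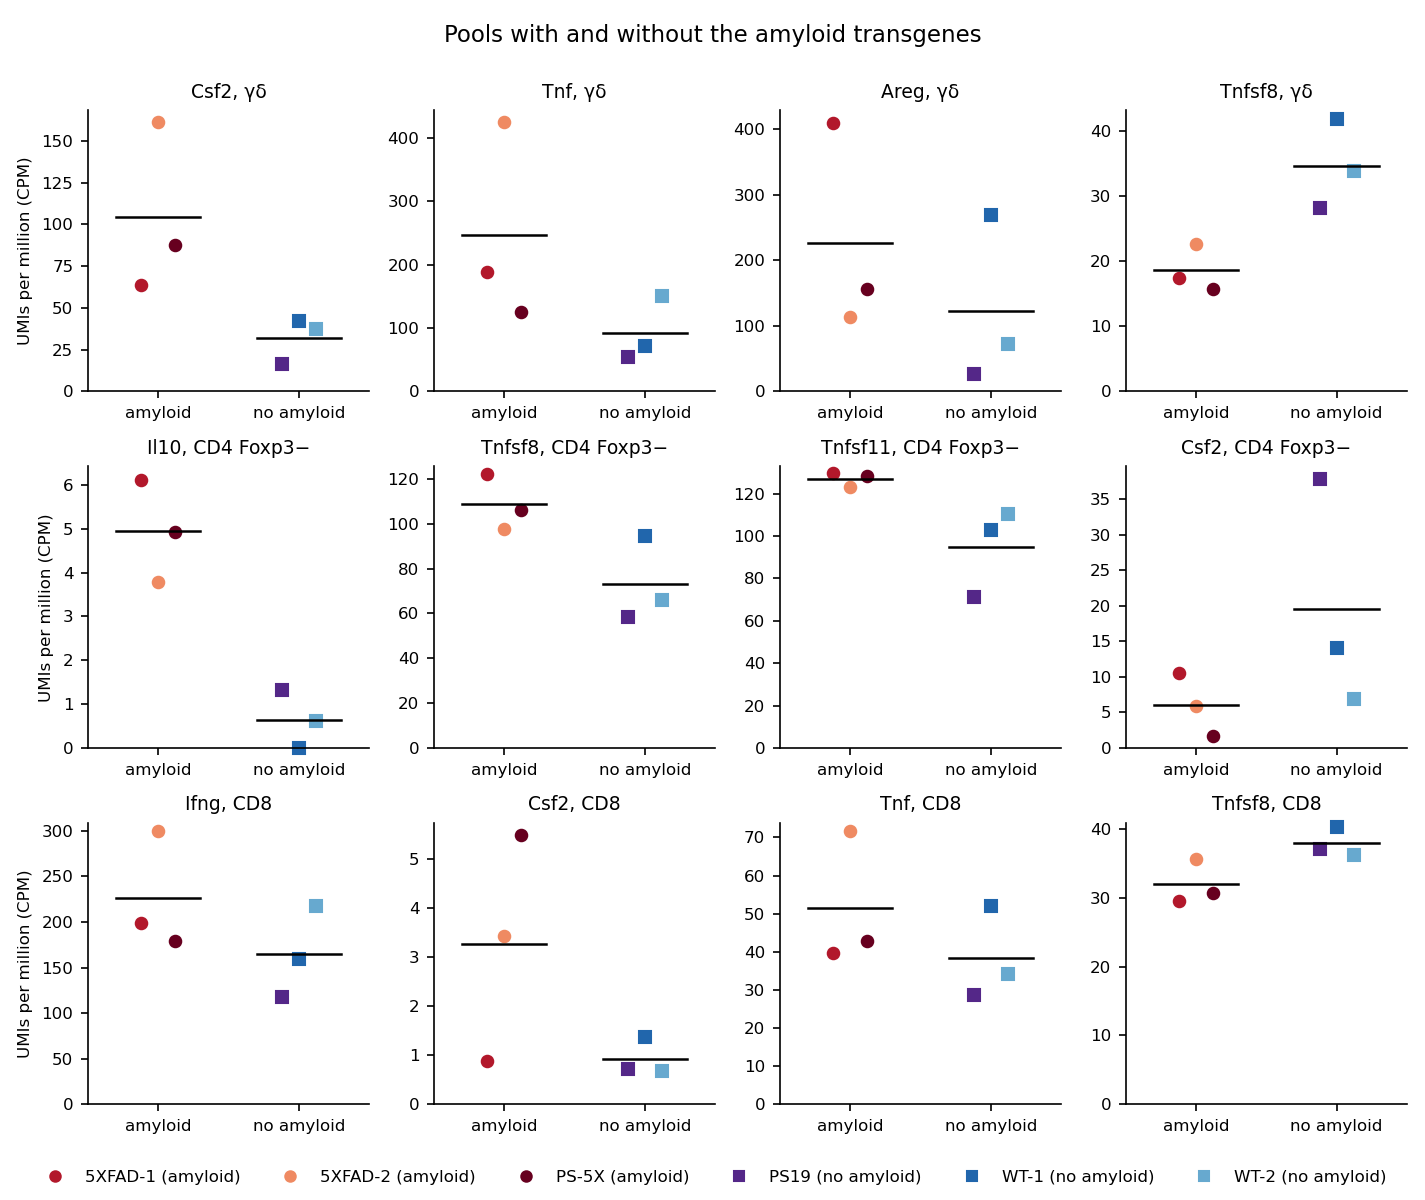
Level in CPM of 4 genes each in γδ, Foxp3-negative CD4 and CD8 cells, with amyloid pools on the left of each panel and pools without amyloid on the right. Each point is a pool and the bar is the mean of 3. In γδ cells Csf2 has no overlap between the groups, Tnf overlaps at 1 pool on each side, and in CD8 cells Ifng overlaps.

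In CD8 cells edgeR called 0 of 9 members, where 0.00859% of 11640 genes were called. With the run as a block 1 member, Ifng, and 57 genes were called. Without adjustment 3 members had a p below 0.05, and DESeq2 called 0. The 1 gene called, Igkv1-117, is an immunoglobulin segment named after its values were seen. Ifng was 199, 299 and 179 CPM with amyloid (226 ± 64.4) and 118, 160 and 217 CPM without (165 ± 49.8). The groups overlapped and the ratio was 0.46 ± 0.18 (adjusted p 0.46), or 0.47 with adjusted p 0.0473 with the run as a block, in a range of 0.000738 to 1.0 over 16 alternatives. Each pair ran the same way, by 0.32 (5XFAD-1 over WT-1), 0.46 (5XFAD-2 over WT-2) and 0.60 (PS-5X over PS19). An Ifng UMI was seen in 24.1% ± 2.18 of thinned CD8 cells with amyloid and 18.1% ± 2.81 without (SD, n = 3 each), a difference of 6.0 percentage points with a two-sided exact permutation p of 0.1, the smallest that 3 against 3 pools can give. The difference was 6.02 points in the common and 5.94 in the separate run.

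Expansion and cell state differ between these pools too. Cells with a naive-gene UMI made up 47.7%, 58.9% and 51.1% of CD8 cells with amyloid and 71.2%, 64.8% and 62.4% without. Within expanded CD8 cells alone Ifng was 344 ± 103 CPM with amyloid and 356 ± 136 CPM without, a ratio of 0.05 ± 0.18 (adjusted p 0.981), and within singletons it was 0.41 (adjusted p 0.901). In CD8 cells without a naive-gene UMI the amyloid ratio of Ifng was 0.16 (adjusted p 0.841).

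The other CD8 members gave no edgeR call either. Csf2 was 0.891, 3.44 and 5.5 CPM with amyloid and 0.716, 1.37 and 0.685 CPM without, with an overlap at 5XFAD-1 and WT-1 (1.95 ± 0.61, adjusted p 0.377). Tnfsf8 was 29.6, 35.7 and 30.7 CPM with amyloid and 37.1, 40.3 and 36.3 CPM without, so that every amyloid pool lay below every other pool (-0.24, adjusted p 0.495). Areg (0.92), Tnf (0.47), Il2 (0.37), Tnfsf11 (0.21), Cd40lg (-0.04) and Tgfb1 (-0.12) had adjusted p of 0.554 (Tnf) or higher, and Il10 was not tested. Among expanded CD8 cells 0 of 9 members were called by edgeR, where 0.0786% of genes were (8 genes, and 108 with the run as a block), with 1 member at an unadjusted p below 0.05 and 0 called by DESeq2. Csf2 in those cells was higher by 2.64 (adjusted p 0.31), and with the run as a block by 3.04 with adjusted p 0.0239, in a range of 0.0014 to 1.0 over 14 alternatives. The other members of the expanded cells lay between Cd40lg (-1.05) and Areg (0.27), with Il2 at -0.24, Tgfb1 at -0.15, Tnf at 0.13, Tnfsf8 at 0.17 and Tnfsf11 at 0.25. Il10 was not tested in expanded or singleton CD8 cells. Among singletons 0 of 9 were called by edgeR, where 0.00901% of genes were (Igkv1-117 again), with 3 members at an unadjusted p below 0.05 and 0 called by DESeq2. Their ratios lay between Tgfb1 (-0.16) and Csf2 (1.30), with Tnfsf8 at -0.13, Tnfsf11 at -0.10, Tnf and Ifng at 0.41, Cd40lg at 0.44, Il2 at 0.59 and Areg at 1.14.

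Foxp3-negative CD4 cells gave 0 called members of 10 by edgeR, and 0.0% of 10112 genes. At an unadjusted p below 0.05 there were 4 members and 413 genes, DESeq2 called 0 members and 3 genes, and the block on the run 0 members and 3 genes. Il10 was 6.12, 3.80 and 4.93 CPM with amyloid and 1.32, 0 and 0.605 CPM without, on 18, 7 and 20 UMIs against 4, 0 and 2 UMIs. All amyloid pools lay above all others (2.60 ± 0.63, adjusted p 1.0), and in pools with at least 7 Il10 UMIs a single cell held 35% to 50% of them. Tnfsf8 was 122, 97.6 and 106 CPM with amyloid and 58.2, 94.6 and 65.9 CPM without, also with no overlap (0.63 ± 0.16, adjusted p 1.0). Tnfsf11 was 130, 123 and 128 CPM with amyloid and 71.0, 103 and 110 CPM without, with no overlap (0.45 ± 0.15, adjusted p 1.0). Csf2 was 10.5, 5.97 and 1.72 CPM with amyloid and 37.8, 14.1 and 6.96 CPM without (-1.63 ± 0.72, adjusted p 1.0). Tnf and Cd40lg (both -0.01), Tgfb1 (-0.05), Ifng (-0.06), Il2 (-0.15) and Areg (-0.23) also had adjusted p of 1.0. A Cd40lg UMI was seen in 43.4% ± 4.78 of thinned cells with amyloid and 43.4% ± 5.30 without, a difference of -0.0387 points with an exact permutation p of 1.0, or 1.10 in the common and -2.31 in the separate run.

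Tnfsf8 thus lay above in CD4 and below in CD8 cells of the amyloid pools, and the difference of the amyloid effect between these classes was tested itself. EdgeR called 0 of 10 members, where 0.00927% of genes were called (Sostdc1, named after its values were seen, and 21 genes with the block), with 5 members at an unadjusted p below 0.05 and 0 called by DESeq2. For Tnfsf8 the difference was 0.91 ± 0.17 (adjusted p 0.21), and it passed with the run as a block (0.87, adjusted p 0.00524), without 5XFAD-2 (1.10, adjusted p 0.0186) and with stricter gates (0.99, adjusted p 0.0308), in a range of 4.1e-08 to 0.933 over 15 alternatives. For Csf2 it was -3.85 ± 1.02 (adjusted p 0.806), and -4.25 with adjusted p 0.0447 with the block, in a range of 4.59e-13 to 1.0. The other members lay between Areg (-0.94) and Il10 (3.09), with Ifng at -0.52, Il2 at -0.51, Tnf at -0.47, Cd40lg at 0.04, Tgfb1 at 0.08 and Tnfsf11 at 0.23.

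Foxp3-positive cells allowed the comparison in 4 pools with at least 10 such cells (5XFAD-2 and PS-5X with amyloid, PS19 and WT-2 without), which left 1 residual degree of freedom. EdgeR called 0 of 4 tested members, where 0.342% of 2925 genes were called, with 0 members at an unadjusted p below 0.05 and 0 genes called by DESeq2. The ratios were 0.52 for Tgfb1, 0.22 for Areg, -0.39 for Cd40lg and -0.49 for Ifng, each with adjusted p 0.999. The other 6 members were too low to be tested. Jun, of the listed transcription factors, was higher with amyloid by 1.47 ± 0.30 (adjusted p 0.00199 in edgeR).

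For tau, PS19 and PS-5X were set against the other 4 pools with amyloid in the model. Strain background was not a term, so a difference with tau cannot be told apart from one of background. EdgeR called 0 of 9 members in CD8 cells, where 0.00859% of genes were called (Igkv1-117), and 0 of 10 in Foxp3-negative CD4 cells, where 0.00989% were (Gm10501), both named after their values were seen. DESeq2 called 0 members in both, and the block on the run 0 members in both, with 2 genes in CD8 and 36 in Foxp3-negative CD4 cells. At an unadjusted p below 0.05 there was 1 member in CD8 and there were 2 in Foxp3-negative CD4 cells. Ifng in CD8 cells differed by -0.53 (adjusted p 0.896) and Tnf in Foxp3-negative CD4 cells by -0.69 ± 0.16 (adjusted p 0.50). The other CD8 ratios lay between Areg (-0.60) and Csf2 (0.93), with Tnf at -0.40, Tgfb1 at -0.19, Cd40lg at -0.11, Il2 at -0.10, Tnfsf8 at -0.01 and Tnfsf11 at 0.19, and Il10 was not tested. The other Foxp3-negative CD4 ratios lay between Areg (-0.38) and Csf2 (0.64), with Tgfb1 at -0.32, Ifng at -0.25, Tnfsf11 at -0.22, Tnfsf8 at -0.17, Cd40lg at 0.0, Il2 at 0.04 and Il10 at 0.33. EdgeR called none of the listed related genes for amyloid or tau in CD8 or Foxp3-negative CD4 cells.

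Genes whose levels ran most like a member's were taken over the 24 sums of 4 classes and 6 pools, among 6174 genes with a mean of at least 20 CPM, by Pearson's r of log2(CPM + 1). The sums share pools, libraries and classes, so r is a description. Tnfsf11 was most like Gpr132 (r 0.94), Klf4 (0.92) and Fosb (0.91), Areg most like Cd83 (0.93), Fermt3 (0.90) and Birc3 (0.89), and Csf2 most like Cyp4f16 (0.89), Eprs (0.89) and Jun (0.87). Ifng was most like Sugt1 (0.90), Slbp (0.85) and Rpl7 (0.85), Tnf most like Fam102a (0.86), Plk3 (0.80) and Pfkl (0.80), and Tgfb1 most like Phlda1 (0.86), Tfip11 (0.85) and Ftl1 (0.85). Cd40lg was most like Cd9 (0.81), Mcl1 (0.79) and Eea1 (0.78). Tnfsf8 had the lowest leading value, with Asap1 (0.77), Rnf19a (0.76) and Tcf7 (0.76). Il2 and Il10, at means of 15.7 and 8.31 CPM, were below the limit set for this measure.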

How the data were processed

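Per the labels' protocols, T cells from 6 pools of mouse brains were profiled with 10x 5′ gene expression and T-cell receptor libraries, and the submitters' processing notes name Cell Ranger 6.0.1. The authors deposited a matrix of raw UMI counts and a contig table whose text column (unit: other) gives, per the file headers, the pool each contig came from, and this column tied barcode suffixes to pools. The aligner settings, genome build and annotation are not given in the sources used here. The authors' counts were used as deposited. The deposited files hold no cell classes, so these were set here from UMIs.

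Barcodes needed at least 500 genes and at most 10% mitochondrial UMIs, and doublets were removed by a score against simulated doublets, 0.8% of barcodes per 1000 (6 to 325 a pool). Gates required a Cd3 UMI and 2 Cd8a or Cd8b1 UMIs (CD8), 1 Cd4 UMI (CD4, split by 1 Foxp3 UMI) or 2 Trdc UMIs without a TRB contig (γδ). Sums had 26373 to 25621055 UMIs, so precision is lowest in Foxp3-positive and γδ sums. CPM is a gene's share of a sum's UMIs, times 1000000. Quasi-likelihood tests were run in edgeR 4.0.16 (R 4.3.3) after filterByExpr and TMM scaling, with calls at adjusted p below 0.05, with the pool as a block for classes and clones and amyloid and tau as terms for genotypes. Gate genes and receptor segments were not tested. Shares were the expected shares at 2000 UMIs a cell, with shallower cells left out, and used exact permutation tests (scipy 1.17.1). Clone comparisons needed 20 cells in both sums of a pool. Clusters came from leidenalg 0.10.2 and were used for description and as an alternative. The fitting code was tested on simulated counts.

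Same-numbered 5XFAD and WT pools share a sequencing run per the labels, so the numbers pair them; their deviations in CD8 sums correlated at r = 0.28 over 5816 genes. Alternatives were other size factors, no gene filter, DESeq2 1.42.0, each pool left out, doublets kept, shared WT-1 receptors left out, stricter gates, cluster classes, naive-gene cells left out (genes chosen after seeing the data), the run as a block, subsets of genotypes and other thinning depths. The form in which the naive-gene alternative was first set is not reported here. The members and gene lists were chosen with earlier results of these data known. All tested members are named in each comparison, and of each list at most 3 called genes with the largest difference.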

Additional observations from a re-analysis of the deposited data

Results flagged for a closer look

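A pair of values stood apart from the other pools of their set by Dixon's criterion at 95%, among 62 sets of 4 to 6 pools, where chance marks about 1 in 20. Il2 in γδ over Foxp3-negative CD4 cells had a log2 ratio of -2.38 in WT-1, against -4.48 to -4.25 in the others of 4 pools with a value. Each of these 4 pools held 1 Il2 UMI in its γδ cells. The γδ sum of WT-1 was the smallest, at 167236 UMIs from 21 cells, so 1 UMI gave a higher level there. Ifng in CD8 clones of at least 5 cells over clones of 2 to 4 cells had a log2 ratio of -0.10 in WT-2, against 0.81 to 1.22 in the other 5 of 6 pools.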

How the results depend on the processing

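Of the members' results under alternatives, 2141 kept their direction and side of the threshold, 46 lost and 55 gained a call and 3 turned direction. The turned ones, in expanded over singleton cells, were Areg (-0.18) in CD8 cells without naive-gene cells, an alternative chosen after seeing the data, and Tnfsf11 (0.55) and Cd40lg (0.41) in Foxp3-negative CD4 cells with cluster classes. The Cd40lg share difference of -0.0387 points turned to 2.68 without 5XFAD-1, 2.88 without WT-2 and 0.719 with cluster classes, and ran from -2.29 to 2.88 with 1 pool left out. The causes were not tested.

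Counts of called members moved as follows. In CD8 expansion 6 became 2 without naive-gene cells. In Foxp3-negative CD4 expansion 3 became 1 with stricter gates and 1 in the pools without amyloid. For clones of at least 5 cells 1 became 2 with no gene filter, without shared WT-1 receptors, with cluster classes, without naive-gene cells or in the amyloid pools. That count became 0 in the pools without amyloid, and ran from 1 to 2 with 1 pool left out. With no gene filter the count with amyloid became 3 in γδ, 3 in Foxp3-negative CD4, 3 in CD8, 2 in expanded CD8 and 1 in singleton CD8 cells, with tau 1 in each class, and for the differences of the amyloid and the expansion effect 3 each. In γδ cells with amyloid 1 became 2 with other size factors, 0 with stricter gates, cluster classes or 5XFAD against WT alone, and ran from 0 to 3 with 1 pool left out. Cluster classes gave 1 in expanded CD8 cells. The difference of the amyloid effect gave 1 with stricter gates and ran from 0 to 1 with 1 pool left out.

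With the sequencing run as a replicate block, called members became 3 in γδ, 1 in CD8 and 1 in expanded CD8 cells with amyloid and 2 for the difference of the amyloid effect, and the block changed no other member's call. For amyloid in Foxp3-positive cells neither the block nor a left-out pool was fitted, since that comparison has 1 residual degree of freedom.

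Genes called in all, with no gene filter and with DESeq2, were 575 and 86 for amyloid in CD8 cells (1 as reported), 117 and 3 in Foxp3-negative CD4 cells (0), 100 and 14 in γδ cells (24), 361 and 58 in expanded CD8 cells (8) and 200 and 3 in singletons (1). They were 193 and 23 for tau in CD8 cells (1), 137 and 15 in Foxp3-negative CD4 cells (1), 71 and 0 for the difference of the amyloid effect (1) and 209 and 59 for that of the expansion effect (11). DESeq2 called 0 genes in Foxp3-positive cells (10) and 505 with expansion in Foxp3-negative CD4 cells (833), and 456 genes were called for clones of at least 5 cells with no gene filter (193). Depth limits Il10, too low to be tested within CD8 and γδ cells, and Csf2, of which 1 cell held up to 85.7% of a pool's UMIs in Foxp3-negative CD4 cells.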
